A study of Homo sapiens with 6 samples.

Results

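The 45 genes described here control the cell division cycle: cyclins, cyclin-dependent kinases (CDKs), CDK inhibitors, E2F transcription factors with their DP and pocket protein partners, the phosphatases and kinases that switch CDKs on and off, and the MuvB, MYBL2 and FOXM1 regulators. They were chosen by name, with earlier results of these data known, and all 45 were found among the 79172 gene names of the count table. The RNA-seq libraries came from Huh7, a long-established cell line of human liver cancer. There were 3 libraries of cells overexpressing HK1, the gene of hexokinase 1, and 3 libraries of control cells, and both groups carried the Huh7 background. The sources used here give neither the means by which HK1 was raised nor what the controls received, nor whether the cells were a pool or 1 clone. Separate cultures are not stated for the replicates, so p-values measure only the spread between these libraries, which may be technical. The comparison asks how raised hexokinase 1 affects gene expression in hepatocellular carcinoma cells.

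In the textbook scheme, D-type cyclins with CDK4 or CDK6, then E-type cyclins with CDK2, phosphorylate the retinoblastoma family of pocket proteins and so release E2F factors, which switch on genes of DNA replication and of the cycle itself. CDK inhibitors of the INK4 and CIP/KIP families hold these kinases back. Later, A-type and B-type cyclins with CDK1 drive mitosis after CDC25 phosphatases remove the phosphates that WEE1 and PKMYT1 add, and MuvB, MYBL2 and FOXM1 switch on the mitotic genes. The cycle restarts when hepatocytes regenerate the liver and runs unchecked in liver cancer.

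Libraries held 16771835 to 20823072 counts. Levels are given as CPM, the count relative to the library's size, after scaling each library by its TMM factor, which takes most genes as unchanged. The factor was 1.01 in each HK1-overexpressing library and 0.982 to 0.991 in control libraries. HK1 had 9723, 10602 and 11101 counts in HK1-overexpressing libraries, against 13, 15 and 13 in controls, so every library fitted its label. The 8 hepatocyte markers summed to 9217 to 9503 CPM in HK1-overexpressing and 11914 to 12937 CPM in control libraries, and none was at 0. The part of this difference in the results below was not tested. Leukocyte, fibroblast and muscle markers, 8 genes in all, summed to under 1 CPM for each type in every library. The 3 endothelial markers, 1 of them at 0 throughout, summed to 4.54 to 5.41 CPM in HK1-overexpressing and 4.03 to 6.26 CPM in control libraries. Nearly all of that sum was PECAM1, with 80 to 114 counts per library, while VWF had 0 to 3.

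Most cell cycle control genes were slightly lower in HK1-overexpressing cells, and 9 of them passed the test: CDKN2C, E2F5, CCNF, E2F8, CDC25A, E2F2, FOXM1, MYBL2 and E2F1. CDKN2B, an INK4 inhibitor, was the 1 member that rose. The filter on low counts left 43 of the 45 members, and of these 9 fell, 1 rose and 33 did not pass (quasi-likelihood test of edgeR, Benjamini-Hochberg adjustment over 16734 genes, threshold 0.05). Over all tested genes 8.02% passed, 3.87% higher and 4.15% lower. These shares are not matched for level: the median was 40.5 CPM over tested members and 15.2 CPM over all tested genes. The members' median log2 fold change was -0.16, beside 0.00630 over all tested genes, and 36 of 43 lay below 0, beside 48.6% of all tested genes.

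The changes were small: among the 10 members that passed, the log2 fold changes ran from -0.55 for CDKN2C, a fall of 31.5%, to 0.31 for CDKN2B. Of the tested members, in 20 every HK1-overexpressing library lay below every control, and in 1 every one lay above, against 13.9% and 14% of all tested genes. Among these 20, the 11 that did not pass were CCND1, CCNE1, CCNA2, CCNB2, CDK2, CDK4, CDKN1B, CDKN3, E2F4, CDC25C and SKP2. The summed level of the 45 members was 2923, 2918 and 2886 CPM in HK1-overexpressing libraries, against 3211, 3249.9 and 3226 CPM in controls. Controls were more variable: the median over members of the SD as a percentage of the mean was 3.74% in HK1-overexpressing and 6.65% in control libraries. In bulk RNA, fewer cells in a stage of the cycle and less mRNA per cell cannot be told apart.

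The calls depended on which libraries entered. CDKN2C, E2F5, CCNF, CDC25A, FOXM1 and MYBL2 passed under all 15 alternatives. Without control replicate 2 the falling members numbered 14, with CCNA2, CDK1, TFDP1, WEE1 and SKP2 added. With quality weights for the libraries, in limma-voom, 18 fell and 2 rose. Without control replicate 1 there were 13, with CCNB1, CDK4, CDKN3 and CKS1B added, and CDK6 rose beside CDKN2B. Lower calls over all genes grew as well under these settings, from 694 to 983, 1137 and 1085 in the same order. The gain in falling members is thus not particular to the members. The other replicates, left out in turn, gave 7 to 9 falling members. With library totals in place of TMM, the split over all genes was not 648 higher and 694 lower but 907 higher and 462 lower, and 8 members still fell.

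**Figure D1:**
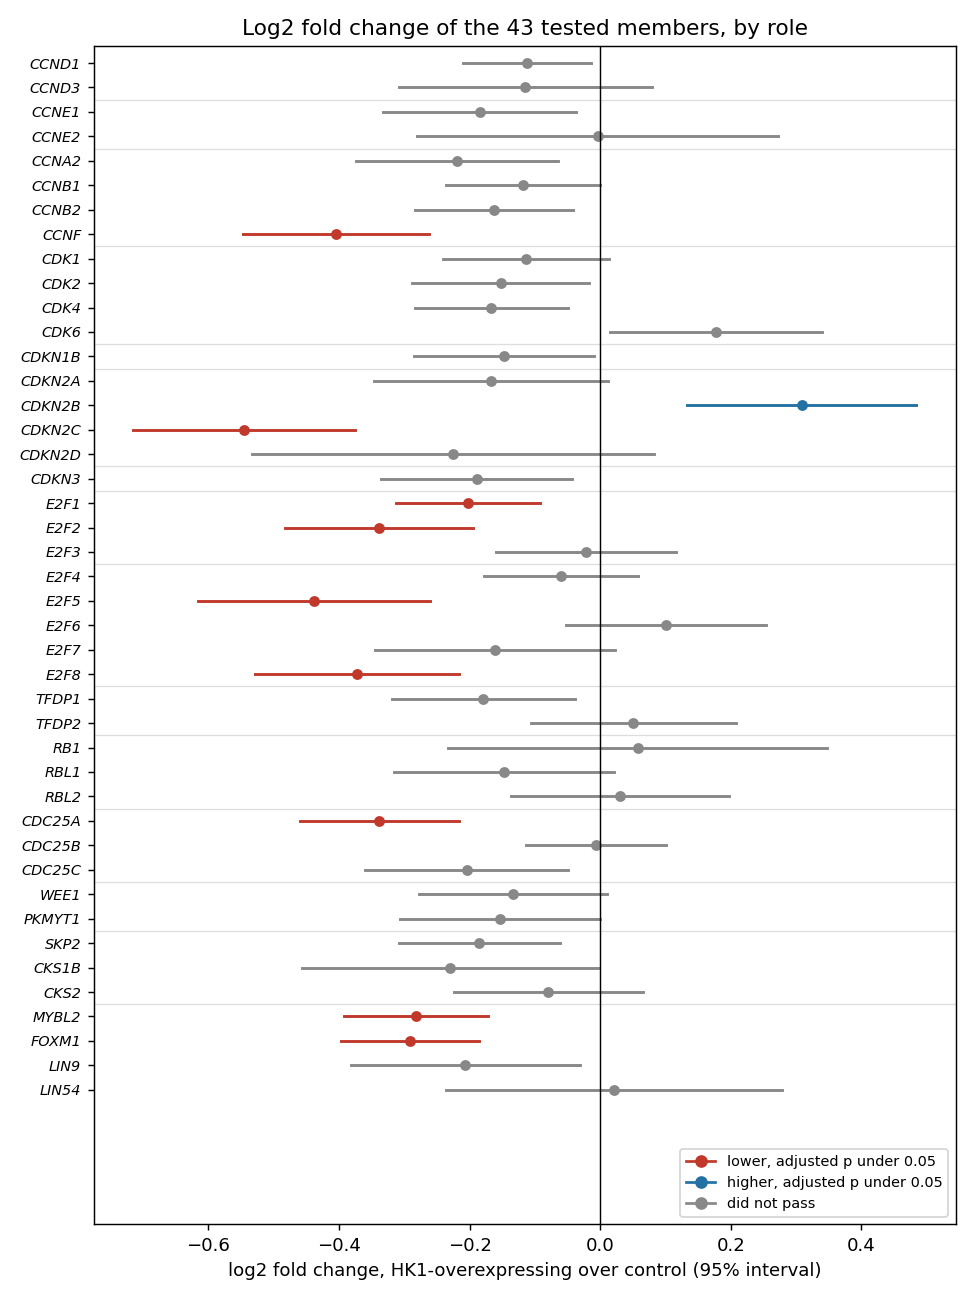
Log2 fold change (x axis, HK1-overexpressing over control) of the 43 tested members (y axis, grouped by role) with 95% intervals from the fit's standard error. The 9 members that fell are red, CDKN2B, which rose, is blue, and 36 of the 43 points lie left of 0.

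Promoter windows were compared because E2F and MuvB factors are known to bind the promoters of several members. RefSeq windows (GRCh38.p14) of 300 bases, 250 before and 50 after the gene start, were found for 35 of the 45 members and 6 of the 9 that fell. The letters TTTCCCGC, TTTGGCGC, TTTCGCGC or TTTGCCGC, close to the E2F consensus, were searched on both strands. They stood in 7 of 35 member windows. Of these members, E2F1, E2F2 and CDC25A fell, and CDK1, E2F3, RBL1 and TFDP1 did not pass. The E2F letters stood in 3.33% of all 27305 windows and 5.22% of the 11212 windows of tested genes. The letters TTTGAA or TTCGAA, as in the CHR element that MuvB binds, stood in 9 of 35 and in 16.6% of all windows and 11.9% of those of tested genes. CCAAT stood in 15 of 35, in 35.7% of all windows and in 36.5% of those of tested genes. Among the 6 windows of members that fell, the E2F letters stood in 3, the CHR letters in 1 and CCAAT in 3. CCAAT and the CHR letters share no overlap in the windows shown, and a match is a description, not a bound site.

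The last 120 bases before the RefSeq gene start are shown for 4 members that fell. These were the only falling members with any of the searched letters in their window. RBL1 and CCNB2, picked by hand among members that carry the same letters and did not pass, are shown as well. The stretches shown lie at chr20:33686386-33686505 (minus strand) for E2F1, chr1:23531234-23531353 (minus strand) for E2F2, chr3:48188418-48188537 (minus strand) for CDC25A, chr16:2429327-2429446 (plus strand) for CCNF, chr20:37095998-37096117 (minus strand) for RBL1 and chr15:59105026-59105145 (plus strand) for CCNB2. Each reads 5′ to 3′ on the gene's strand, and capitals mark the searched letters on either strand.
E2F1: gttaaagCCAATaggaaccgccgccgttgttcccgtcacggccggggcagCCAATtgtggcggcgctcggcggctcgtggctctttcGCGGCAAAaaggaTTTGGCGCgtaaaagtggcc
E2F2: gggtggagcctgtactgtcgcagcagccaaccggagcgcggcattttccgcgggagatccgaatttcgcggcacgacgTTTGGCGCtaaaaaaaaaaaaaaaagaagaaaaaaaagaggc
CDC25A: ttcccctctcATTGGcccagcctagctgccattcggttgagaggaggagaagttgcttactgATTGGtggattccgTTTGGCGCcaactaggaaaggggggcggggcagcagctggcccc
CCNF: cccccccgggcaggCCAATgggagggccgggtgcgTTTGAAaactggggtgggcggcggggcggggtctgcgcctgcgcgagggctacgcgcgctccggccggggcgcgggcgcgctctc
RBL1: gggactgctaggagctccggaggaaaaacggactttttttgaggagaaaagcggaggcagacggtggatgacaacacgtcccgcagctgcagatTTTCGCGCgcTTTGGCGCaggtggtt
CCNB2: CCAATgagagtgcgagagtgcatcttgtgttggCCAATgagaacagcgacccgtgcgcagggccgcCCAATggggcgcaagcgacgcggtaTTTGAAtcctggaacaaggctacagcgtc
TTTGGCGC stands near the start in E2F1, E2F2, CDC25A and RBL1, whose log2 fold changes were -0.20, -0.34, -0.34 and -0.15. CCNF and CCNB2 carry TTTGAA downstream of CCAAT, with log2 fold changes of -0.40 and -0.16. The same letters thus stood before genes that passed and genes that did not. Not passing does not mean unchanged here, since RBL1 and CCNB2 also had log2 fold changes below 0.

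Among the 9 cyclins that are members, CCNF fell, CCND2 was not tested, and CCND1, CCND3, CCNE1, CCNE2, CCNA2, CCNB1 and CCNB2 did not pass. CCNF encodes cyclin F, which binds no CDK and acts instead as the substrate receptor of an SCF ubiquitin ligase. CCNF had 32.1, 34.2 and 34.0 CPM in HK1-overexpressing libraries, against 44.3, 46.8 and 41.8 CPM in control libraries. The groups did not overlap (log2 fold change -0.40, SE 0.0664, edgeR adjusted p = 0.00162). CCNF lies on chromosome 16 from 2429394 to 2458854 (hg38), and 21.5% of its exon bases were shared with genes of the opposite strand. Counting without strand cannot separate these genes and drops fragments that lie over several genes, so shared exon bases can lose counts.

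CCNA2, cyclin A2, which acts with CDK2 in S phase and CDK1 later, came nearest among the others. CCNA2 had 50.2, 51.8 and 48.7 CPM in HK1-overexpressing libraries, against 62.6, 51.8 and 60.9 CPM in control libraries. All HK1-overexpressing values were below the controls (log2 fold change -0.22, edgeR adjusted p = 0.0809). Control replicate 2 exceeded the highest HK1-overexpressing value by less than the last digit shown. Without that replicate CCNA2 fell (edgeR adjusted p = 0.00126), and with any other library left out it did not pass (edgeR adjusted p = 0.141 to 0.280). The B-type cyclins of mitosis, CCNB1 and CCNB2, had log2 fold changes of -0.12 and -0.16 and did not pass (edgeR adjusted p = 0.225 and 0.0966).

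CCNE1, cyclin E1, which drives entry into S phase, had 32.4, 29.7 and 29.7 CPM in HK1-overexpressing libraries, against 32.9, 36.1 and 35.3 CPM in controls (log2 fold change -0.18, edgeR adjusted p = 0.125). CCNE2 was at 6.17 ± 0.789 CPM in HK1-overexpressing and 6.16 ± 0.648 CPM in control libraries (SD, n = 3 each), with a wide 95% interval of -0.28 to 0.27 on the log2 scale. CCNE2 shared 37.1% of its exon bases with genes of the opposite strand, mainly INTS8. The groups overlapped for CCNE2 and not for CCNE1.

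CCND1, the cyclin that links growth signals to the cycle, had 175, 177 and 179 CPM in HK1-overexpressing libraries, against 192, 191 and 190.0 CPM in controls. The replicates lay close together and the groups did not overlap, yet the difference was only -0.11 on the log2 scale and did not pass (edgeR adjusted p = 0.163). On the per-length scale CCND1 was 90.1% ± 0.58 of the summed D-type cyclins in HK1-overexpressing and 90.1% ± 1.1 in control libraries (SD, n = 3 each), with CCND3 the rest. CCND3 itself was at 23.5 ± 1.29 CPM in HK1-overexpressing and 25.5 ± 3.17 CPM in control libraries (log2 fold change -0.11, edgeR adjusted p = 0.511). CCND2 had a count of 0 in all 6 libraries, which allows up to 0.144 to 0.153 CPM in HK1-overexpressing and 0.149 to 0.179 CPM in control libraries, taking 3 counts of the library total, for counting error only.

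None of CDK1, CDK2, CDK4 and CDK6 passed in the edgeR test, where 3 of the 4 had an unadjusted p below 0.05, nor in DESeq2 or in limma-voom without quality weights, while with those weights CDK1 and CDK4 fell and CDK6 rose. CDK4, the most abundant CDK per length beside CDK1, CDK2 and CDK6, had 254, 246 and 265 CPM in HK1-overexpressing libraries, against 268, 304 and 287 CPM in controls. The groups were separate but close (log2 fold change -0.17, SE 0.0549, edgeR adjusted p = 0.0797). Of its exon bases 44.2% were shared with TSPAN31 on the opposite strand. CDK1, the mitotic kinase, and CDK2 had log2 fold changes of -0.11 and -0.15 with 95% intervals of -0.24 to 0.014 and -0.29 to -0.017.

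CDK6, the other partner of the D-type cyclins, lay above 0, and is singled out after its values were seen. CDK6 had 67.0, 70.0 and 69.2 CPM in HK1-overexpressing libraries, against 68.3, 53.9 and 59.8 CPM in control libraries. Control replicate 1 was as high as the HK1-overexpressing libraries, and the groups overlapped (log2 fold change 0.18, SE 0.0755, edgeR adjusted p = 0.183). Without that control CDK6 rose (edgeR adjusted p = 0.00564), and the log2 fold change was 0.28. Leaving out the control that overlapped was bound to widen the difference. With any other library left out CDK6 did not pass (edgeR adjusted p = 0.278 to 0.423). The share of CDK6 among the 4 CDKs on the per-length scale was 4.11% ± 0.160 in HK1-overexpressing libraries and 3.30% ± 0.485 in controls.

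The INK4 inhibitors, which block CDK4 and CDK6, moved in opposite directions. CDKN2C, p18, fell, and CDKN2B, p15, rose, while CDKN2A, the gene of p16 and ARF, and CDKN2D, p19, did not pass. CDKN2C had 14.3, 14.2 and 15.9 CPM in HK1-overexpressing libraries, against 22.4, 21.2 and 21.2 CPM in control libraries. Every HK1-overexpressing library was below every control (log2 fold change -0.55, SE 0.0794, edgeR adjusted p = 6.31e-04). CDKN2C lies on chromosome 1 from 50960745 to 50974634 (hg38) and shares 22.4% of its exon bases with an unnamed gene at 0 counts. Its fall was the largest among the 43 tested members, although its interval overlapped that of the next member, E2F5, as did the intervals of all 42 neighbouring pairs in the order. The interval of CDKN2C did not overlap that of E2F1, the smallest fall that passed (-0.72 to -0.38 against -0.31 to -0.093).

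CDKN2B had 32.2, 27.8 and 29.9 CPM in HK1-overexpressing libraries, against 26.3, 23.7 and 22.3 CPM in controls. The groups were separated by a small gap (log2 fold change 0.31, SE 0.0820, edgeR adjusted p = 0.0328). With control replicate 3 left out, and with each HK1-overexpressing replicate left out in turn, it no longer passed, with a largest edgeR adjusted p of 0.167. CDKN2B lies on chromosome 9 from 22002903 to 22009305, beside CDKN2A, which runs from 21967752 to 21995301 (hg38).

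CDKN2A had 24.6, 22.7 and 22.5 CPM in HK1-overexpressing libraries, against 23.7, 29.0 and 25.8 CPM in controls, and the groups overlapped (log2 fold change -0.17, edgeR adjusted p = 0.266). Of its exon bases 15.4% were shared with opposite-strand genes, mainly CDKN2B-AS1, while CDKN2B shared none. CDKN2D, at 4.06 ± 0.420 CPM in HK1-overexpressing and 4.75 ± 0.582 CPM in control libraries (SD, n = 3 each), was the tested member with the fewest counts. The counts of p16 and ARF transcripts are joined in CDKN2A.

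The make-up of the family differed accordingly. As a share of the 4 INK4 genes summed on the per-length scale, CDKN2B was 35.5% ± 1.73 in HK1-overexpressing libraries and 26.1% ± 1.88 in controls (SD, n = 3 each). CDKN2C was 23.3% ± 1.29 in HK1-overexpressing libraries and 31.0% ± 1.45 in controls. Neither share overlapped between groups, and a share within a library does not depend on the scaling between libraries. The shares come from the same counts as the calls for CDKN2B and CDKN2C and are not separate evidence. Shares of some members in other families, among them CDK6, RBL1, E2F3 and E2F6, did not overlap either. The shares were not tested, since 3 libraries against 3 cannot give an exact two-sided p below 0.1.

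**Figure D2:**
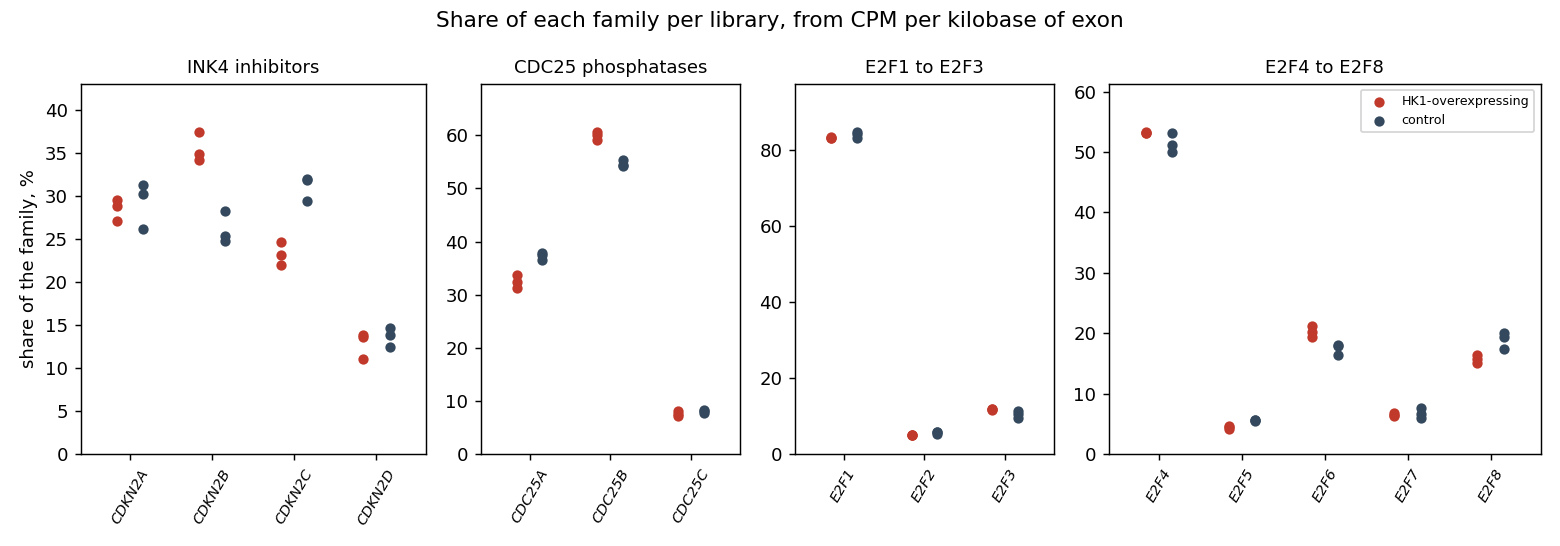
Share of each gene in its family (y axis, percent of the family's summed CPM per kilobase of exon) in each library, with HK1-overexpressing libraries left of controls. CDKN2B takes more and CDKN2C less of the INK4 total in HK1-overexpressing libraries. CDC25A takes less of the CDC25 total, which raises the share of CDC25B at a like CPM. E2F1 dominates its family in both groups, and the E2F2 share is understated, since its length also counts an alternate sequence.

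CDKN1B, p27 of the CIP/KIP family, which binds cyclin E with CDK2, had 38.9, 38.2 and 38.3 CPM in HK1-overexpressing libraries, against 45.1, 42.3 and 40.3 CPM in controls, and did not pass (log2 fold change -0.15, edgeR adjusted p = 0.194). CDKN1C, p57, was not tested: it had 8, 4 and 3 counts in HK1-overexpressing libraries, against 2, 2 and 0 in controls. Exons of CDKN1C, as of E2F2, also stand on an alternate sequence in the annotation, so fragments that map to both may be missing. CDKN3, a phosphatase that acts on CDK proteins, had 52.9, 53.4 and 47.7 CPM in HK1-overexpressing libraries, against 55.6, 62.8 and 57.3 CPM in controls, without overlap and without passing (log2 fold change -0.19, edgeR adjusted p = 0.110).

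**Figure D3:**
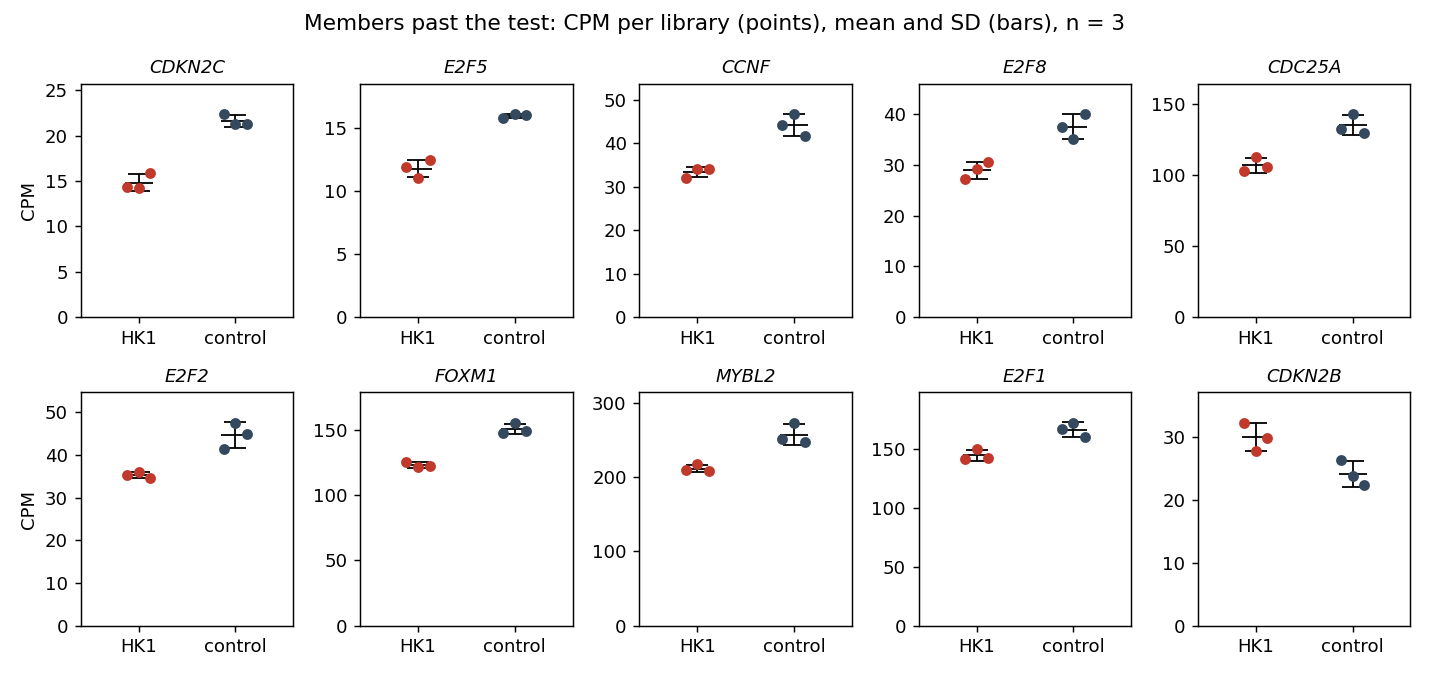
CPM (y axis, from 0) of the 10 members that passed, in each HK1-overexpressing (red, left) and control (dark, right) library, with mean and SD (n = 3 each). The 9 falling genes have every HK1-overexpressing point below every control point, and CDKN2B has every one above.

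E2F factors gave 4 of the 9 falls, 2 from the activators E2F1 to E2F3 and 2 from E2F4 to E2F8, which mostly repress. E2F1, the most abundant E2F per length, had 142, 150.2 and 142 CPM in HK1-overexpressing libraries, against 168, 173 and 160.2 CPM in controls. Each HK1-overexpressing library was below each control, by a small margin (log2 fold change -0.20, SE 0.0513, edgeR adjusted p = 0.0255). It passed in 10 of the 15 alternatives, and those that ended the call included library totals and the leaving out of each HK1-overexpressing replicate, with a largest edgeR adjusted p of 0.159.

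E2F2 had 35.3, 36.0 and 34.6 CPM in HK1-overexpressing libraries, against 41.5, 47.5 and 44.9 CPM in controls. It fell without overlap (log2 fold change -0.34, SE 0.0672, edgeR adjusted p = 0.00633), and of the 15 alternatives 1 ended the call, the one that left out HK1-overexpressing replicate 3 (edgeR adjusted p = 0.0502). E2F3 was at 39.4 ± 0.844 CPM in HK1-overexpressing and 40.0 ± 2.10 CPM in control libraries (SD, n = 3 each), with overlap (log2 fold change -0.022, 95% interval -0.16 to 0.12). Of these 3 activators summed per length, E2F1 was 83.3% ± 0.162 in HK1-overexpressing libraries and 84.0% ± 0.842 in controls (SD, n = 3 each). The length used for E2F2, 10924 bases, counts 5462 bases on chromosome 1 and 5462 again on an alternate sequence. The per-length level of E2F2 is therefore understated and the share of E2F1 overstated, in both groups. The difference in response between E2F2 and E2F3 was not tested. E2F1 lies on chromosome 20 from 33675477 to 33686385, E2F2 on chromosome 1 from 23506438 to 23531233, E2F5 on chromosome 8 from 85177154 to 85217158 and E2F8 on chromosome 11 from 19224063 to 19241620 (hg38).

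E2F5, a partner of the pocket protein p130, had 11.86, 11.04 and 12.44 CPM in HK1-overexpressing libraries, against 15.82, 16.10 and 15.99 CPM in controls. The 3 control values lay within a narrow band well above the others (log2 fold change -0.44, SE 0.0829, edgeR adjusted p = 0.00448). Of its exon bases 18.8% were shared with opposite-strand genes, mainly RBIS. E2F8, a repressor that acts late in the cycle without a DP partner, had 27.2, 29.3 and 30.5 CPM in HK1-overexpressing libraries, against 37.5, 35.1 and 40.0 CPM in controls. It also fell without overlap (log2 fold change -0.37, SE 0.0729, edgeR adjusted p = 0.00566), and again 1 of the 15 alternatives ended the call, the one that left out HK1-overexpressing replicate 1 (edgeR adjusted p = 0.0544).

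E2F7, which acts with E2F8, was near -0.16 on the log2 scale but did not pass. E2F7 had 17.1, 18.9 and 18.1 CPM in HK1-overexpressing libraries, against 22.2, 18.5 and 19.8 CPM in control libraries, and the groups overlapped (edgeR adjusted p = 0.301). E2F4, the E2F that occupies promoters in resting cells, was at 85.2 ± 1.33 CPM in HK1-overexpressing and 88.8 ± 4.20 CPM in control libraries, and E2F6, which works with Polycomb proteins, at 36.6 ± 1.27 CPM in HK1-overexpressing and 34.1 ± 2.60 CPM in control libraries (SD, n = 3 each). Their log2 fold changes of -0.060 and 0.10 did not pass (edgeR adjusted p = 0.584 and 0.455).

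The DP partners and pocket proteins gave no call in edgeR, DESeq2 or limma-voom without quality weights, and 1 of these 5 genes, TFDP1, had an unadjusted edgeR p below 0.05. TFDP1, the main DNA-binding partner of E2Fs, had 93.3, 90.8 and 91.2 CPM in HK1-overexpressing libraries, against 108, 92.7 and 111 CPM in controls, where control replicate 2 lay among the HK1-overexpressing values (log2 fold change -0.18, edgeR adjusted p = 0.115). Without that control TFDP1 fell (edgeR adjusted p = 0.00143), and with any other library left out it did not pass (largest edgeR adjusted p = 0.352). TFDP2 was at 23.2 ± 0.866 CPM in HK1-overexpressing and 22.3 ± 1.09 CPM in control libraries (SD, n = 3 each).

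RB1, the retinoblastoma gene, showed how uneven the controls were. RB1 had 76.0, 72.4 and 70.4 CPM in HK1-overexpressing libraries, against 82.6, 56.1 and 71.1 CPM in control libraries. The control values spanned the HK1-overexpressing values on both sides, so the interval of the log2 fold change was wide, from -0.23 to 0.35. RBL1, p107, had 33.6, 31.7 and 30.8 CPM in HK1-overexpressing libraries, against 39.5, 32.9 and 33.8 CPM in controls (log2 fold change -0.15, edgeR adjusted p = 0.300). RBL2, p130, was at 34.8 ± 1.61 CPM in HK1-overexpressing and 34.0 ± 3.42 CPM in control libraries (SD, n = 3 each), and the signs for RB1 and RBL2 changed when control replicate 2 was left out.

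CDC25A, the phosphatase that activates CDK2 and CDK1 from late G1 onward, fell, and CDC25B and CDC25C did not pass. CDC25A had 103, 113 and 105 CPM in HK1-overexpressing libraries, against 133, 143 and 129.8 CPM in control libraries. There was no overlap (log2 fold change -0.34, SE 0.0570, edgeR adjusted p = 0.00194), and the gene lies on chromosome 3 from 48157146 to 48188417 (hg38). CDC25C, the mitotic form, had 21.2, 19.3 and 19.7 CPM in HK1-overexpressing libraries, against 23.3, 23.2 and 22.9 CPM in controls. Its groups did not overlap either, but the difference did not pass (log2 fold change -0.20, edgeR adjusted p = 0.105).

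CDC25B, the most abundant of the 3 per length, was at 186 ± 1.58 CPM in HK1-overexpressing and 186 ± 8.82 CPM in control libraries (SD, n = 3 each), with a 95% interval of -0.11 to 0.10 on the log2 scale. Of the 3 summed per length, CDC25A was 32.5% ± 1.22 in HK1-overexpressing libraries and 37.3% ± 0.661 in controls (SD, n = 3 each). CDC25B was 59.9% ± 0.813 in HK1-overexpressing libraries and 54.7% ± 0.626 in controls. Neither share overlapped between groups. With CDC25B at a like CPM in both groups, its larger share mirrors the fall of CDC25A and is not a separate result. WEE1 and PKMYT1, the kinases that oppose these phosphatases, had log2 fold changes of -0.13 and -0.15 and did not pass (edgeR adjusted p = 0.270 and 0.229).

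PKMYT1 had 34.4, 36.7 and 36.7 CPM in HK1-overexpressing libraries, against 41.6, 42.0 and 36.2 CPM in controls, with control replicate 3 among the HK1-overexpressing values. WEE1 was at 45.1 ± 1.12 CPM in HK1-overexpressing and 49.4 ± 3.77 CPM in control libraries (SD, n = 3 each). Of PKMYT1 exon bases 31.9% were shared with opposite-strand genes, mainly PAQR4.

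SKP2, the ubiquitin ligase subunit that marks p27 for destruction, came closest to passing among all members that did not. SKP2 had 108, 106 and 106 CPM in HK1-overexpressing libraries, against 123, 112 and 129 CPM in control libraries. The HK1-overexpressing values were nearly equal and all below the controls (log2 fold change -0.19, SE 0.0578, edgeR adjusted p = 0.0648). CKS2, a small CDK-binding protein and the member of highest level per length, was at 71.5 ± 2.04 CPM in HK1-overexpressing and 75.7 ± 7.07 CPM in control libraries (SD, n = 3 each) and did not pass (log2 fold change -0.080, edgeR adjusted p = 0.545). Of the 616 exon bases of CKS2, 52.3% were shared with an unnamed gene of the opposite strand.

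CKS1B, the cofactor by which SKP2 binds p27, is uncertain, because CKS1BP3, a gene named as its pseudogene, had 872 to 913 counts in HK1-overexpressing and 815 to 1000 in control libraries. CKS1B had 40.0, 35.4 and 38.7 CPM in HK1-overexpressing libraries, against 36.9, 50.5 and 46.8 CPM in control libraries. Control replicate 1 was within the HK1-overexpressing range (log2 fold change -0.23, edgeR adjusted p = 0.220), and without it CKS1B fell (edgeR adjusted p = 0.00257). With any other library left out CKS1B did not pass (largest edgeR adjusted p = 0.498). CKS1BP3 itself had 44.0, 43.3 and 43.3 CPM in HK1-overexpressing libraries, against 50.4, 48.8 and 49.6 CPM in controls (log2 fold change -0.19, edgeR adjusted p = 0.0628).

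FOXM1 and MYBL2, the factors that join MuvB to switch on mitotic genes, both fell, here and under all 15 alternatives. FOXM1 had 126, 122 and 122 CPM in HK1-overexpressing libraries, against 148, 155 and 149 CPM in control libraries. MYBL2 had 209, 217 and 208 CPM in HK1-overexpressing libraries, against 251, 273 and 247 CPM in control libraries. FOXM1 lies on chromosome 12 from 2857680 to 2877174 and MYBL2 on chromosome 20 from 43667019 to 43716495 (hg38), and 15.9% of FOXM1 exon bases were shared, mainly with ITFG2. In both genes each HK1-overexpressing library was below each control. FOXM1 changed by -0.29 on the log2 scale (SE 0.0495, edgeR adjusted p = 0.00207) and MYBL2 by -0.28 (SE 0.0517, edgeR adjusted p = 0.00360).

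The MuvB subunits did not pass. LIN9 had 24.5, 21.6 and 20.4 CPM in HK1-overexpressing libraries, against 25.6, 24.3 and 26.8 CPM in controls (log2 fold change -0.21, edgeR adjusted p = 0.151). LIN54, the DNA-binding subunit, was at 35.4 ± 0.634 CPM in HK1-overexpressing and 34.8 ± 6.52 CPM in control libraries (SD, n = 3 each), with controls from 27.3 to 39.4 CPM around the HK1-overexpressing values. For LIN54, as for RB1, control replicate 2 was the lowest library.

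Levels per length, as CPM per kilobase of exon, ran over almost 2 powers of 10. CKS2 was highest at 116 in HK1-overexpressing and 123 in control libraries, over only 616 exon bases, of which 52.3% were shared with another gene. Next in HK1-overexpressing libraries came CCNB1 at 82.8, CDK4 at 82.5 and MYBL2 at 76.1, which were at 89.9, 92.6 and 92.6 in controls. These 3 neighbours lay within about 8 units of each other, and the order of CCNB1 and CDK4 differed between groups. E2F5, TFDP2 and CCNE2 were lowest among tested members, at 1.96, 1.95 and 1.40 in HK1-overexpressing and 2.66, 1.88 and 1.40 in control libraries. The length is that of all annotated exons merged, which understates the level of genes with many transcripts. For E2F2 it also counts the exons of an alternate sequence, so its level is understated further. Fragments over several genes are dropped, which can understate genes with shared exon bases, such as CKS2, CDK4 and CCNE2.

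**Figure D4:**
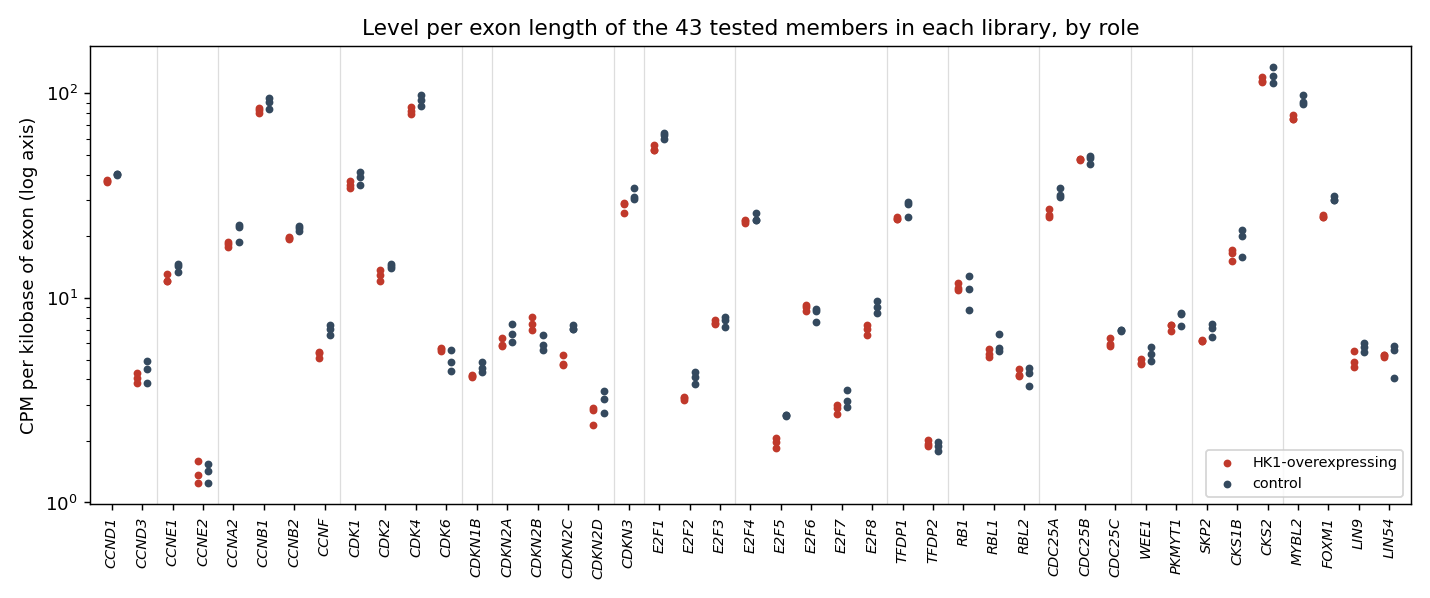
CPM per kilobase of exon (y axis, log scale) of the 43 tested members in each HK1-overexpressing (red, left) and control (dark, right) library, grouped by role. CKS2, CCNB1, CDK4 and MYBL2 are highest and CCNE2, TFDP2 and E2F5 lowest in both groups. E2F2 is drawn too low, since its length also counts an alternate sequence.

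Genes that E2F factors are known to switch on were lower in HK1-overexpressing cells, and most of them passed. Of 25 tested E2F target genes 23 fell and 0 rose, with a median log2 fold change of -0.27, beside 4.15% lower over all tested genes. That background is not matched for level: the median was 111 CPM over these targets and 15.2 CPM over all tested genes. MCM7, MCM3 and CDC45, parts of the replicative helicase, changed by -0.35, -0.32 and -0.41, with MCM7 at 504 ± 2.90 CPM in HK1-overexpressing and 642 ± 26.0 CPM in control libraries (SD, n = 3 each). Without HK1-overexpressing replicate 1, 2 and 3 the falls numbered 12, 12 and 10. The list was chosen with earlier results of these data known, and the difference from the members was not tested.

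Of 23 target genes of FOXM1 and MuvB, 9 fell (39.1%) and 0 rose, beside 4.15% lower over all tested genes, with a median log2 fold change of -0.18. Their median level, 117 CPM, was also above the 15.2 CPM of all tested genes. TOP2A, which untangles chromosomes, PLK1, a mitotic kinase, and TPX2, a spindle assembly factor, changed by -0.34, -0.31 and -0.27. The falls numbered 5 without HK1-overexpressing replicate 1. All 23 had a log2 fold change below 0, as had 48.6% of all tested genes, with -0.0019 the nearest to it. Among them NUSAP1 and PRC1 had few counts, 8 to 18 and 30 to 41 per library. This list too was chosen with earlier results of these data known.

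Relatives of the members were followed next, in lists likewise chosen with earlier results known, with 4.15% of all tested genes lower as the background. Again the background is not matched for level. Of 14 other cyclins 1 fell (7.14%), CCNB3, a B-type cyclin known from meiosis (log2 fold change -0.31, SE 0.0635, edgeR adjusted p = 0.00810). CCNB3 had 35.3, 34.5 and 32.6 CPM in HK1-overexpressing libraries, against 43.5, 41.6 and 41.5 CPM in control libraries. The groups did not overlap, and with HK1-overexpressing replicate 2 or 3 left out the number of falls was 0. Of 20 other CDKs, which mostly act in transcription, 0 rose or fell in edgeR, 0 fell in DESeq2, and 1 had an unadjusted edgeR p below 0.05. The median log2 fold change was 0.011 over the other cyclins and -0.022 over the other CDKs.

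Of 30 genes of the SCF, APC/C and CUL4 ubiquitin ligases 4 fell (13.3%) and 0 rose, beside 4.15% lower over all tested genes. They were FBXO5, an APC/C inhibitor, UBE2C and UBE2S, ubiquitin-conjugating enzymes of the APC/C, and CDC20, its activator, with log2 fold changes of -0.38, -0.26, -0.21 and -0.19. UBE2S is outside the rule for naming and completes the count of 4. Among the alternatives, the falls numbered 1, 1 and 0 without HK1-overexpressing replicate 1, 2 and 3, 1 without control replicate 3, and 2 with library totals only. Of 14 MuvB and E2F partners 1 fell (7.14%), EZH2, the Polycomb methyltransferase (log2 fold change -0.27, SE 0.0506, edgeR adjusted p = 0.00375).

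**Figure D5:**
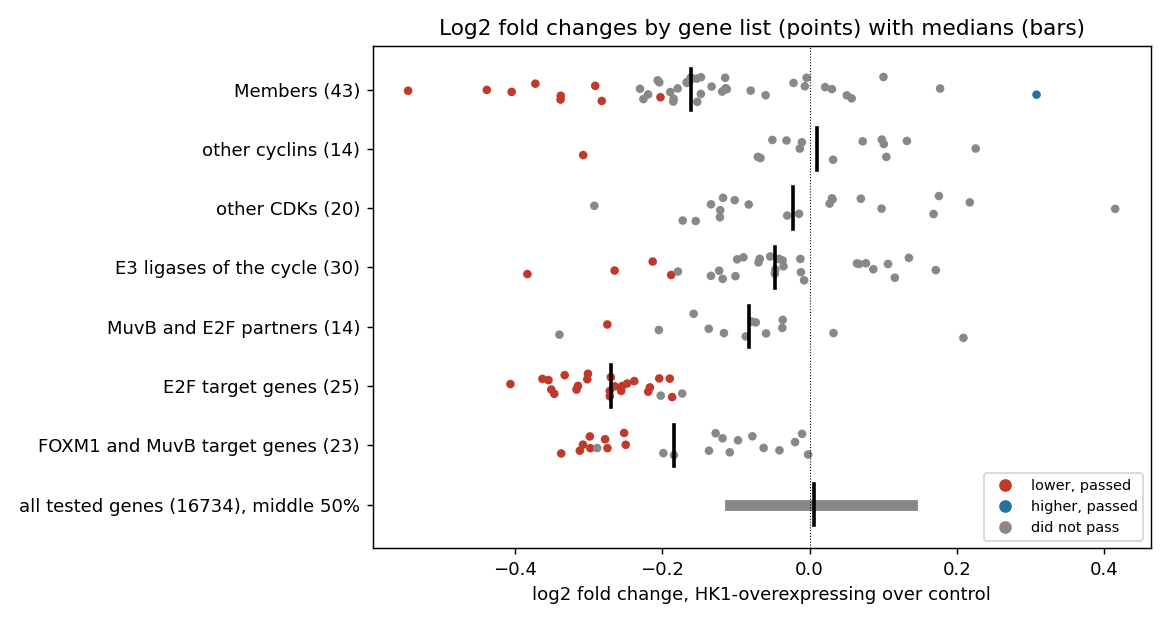
Log2 fold changes (x axis, HK1-overexpressing over control) of the members and of 6 lists of related genes (rows, with the number tested), with the median of each as a bar and the middle 50% of all 16734 tested genes in the bottom row. The E2F target genes all lie left of 0, and the members spread from -0.55 to 0.31.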

How the data were processed

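Raw counts, 1 per gene and library, were deposited for 3 HK1-overexpressing and 3 control libraries, and the authors made them with featureCounts 1.5.3 over exons grouped by gene name of GENCODE release 47, in paired mode and with no strand or multi-mapping option, per the file headers. Trim Galore, Subread and the build hg38 are named per the submitters' processing notes. Columns were matched to samples by title, and all hold whole numbers. Of the 45 members 26 share exon bases with another gene, 13 over more than 10% of their length.

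The test was that of edgeR 4.0.16, run in R 4.3.3 (TMM, filterByExpr, robust quasi-likelihood test, group as the only term, Benjamini-Hochberg over 16734 genes). Standard errors are the unshrunken coefficient over the square root of F, and intervals at 95% use them. Replicates of 1 group differed by more than sampling noise (chi-square per degree of freedom 1.58 to 11.4) and were kept apart. The test was tried on simulated data, where the share of false calls exceeded the nominal one and small changes, of the size of several reported here, were often missed.

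Members and the 6 other lists were chosen with earlier results of these data known. Values per library are given for HK1, members that passed and, in each role, the member of smallest p that did not, with some members beyond this rule, and for up to 3 called genes per other list. Alternatives were RLE factors, library totals, no filter, a floor of 5 on mean CPM, limma-voom 3.58.1 with and without quality weights, DESeq2 1.42.0, no robust dispersion, a replicate block and leaving out each library.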

Additional observations from a re-analysis of the deposited data

How the results depend on the processing

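Leaving out 1 replicate gave 536 to 2257 changed genes (554, 536 and 598 without HK1-overexpressing 1, 2 and 3, and 2257, 1818 and 809 without control 1, 2 and 3), 7 to 14 falling and 0 to 2 rising members, 10 to 24 falling E2F targets and 5 to 12 falling FOXM1 and MuvB targets, where both target counts were added after the data were seen. With quality weights 2155 genes changed, 18 members fell and 2 rose. In the other alternatives these counts stayed within 1.5 times. The replicate block gave 1074 genes, 8 falling and 1 rising members, and 2 falling ubiquitin ligase genes in place of 4. Deviations of same-numbered libraries correlated at 0.0071, 0.058 and -0.030, and not every library correlated best with its own number, so the numbers were not taken to pair the libraries. Under the block E2F1 no longer passed. Of the members' 644 values under alternatives 591 kept sign and side of the threshold, 11 lost and 21 gained a call. Members that had not passed changed sign: CCNE2 0.035, E2F3 0.017 and CDC25B 0.032 with library totals only, CCNE2 0.0088 and CDC25B 0.0068 with no filter, CCNE2 0.0098 and CDC25B 0.0077 with mean CPM of at least 5, CCNE2 0.0013 with replicate block, CDC25B 0.027 and LIN54 -0.024 with limma-voom with quality weights. With 1 replicate left out, log2 fold changes crossed 0 for CCNE2 from -0.099 to 0.078, E2F3 from -0.059 to 0.0075, RB1 from -0.076 to 0.20, RBL2 from -0.043 to 0.10, CDC25B from -0.044 to 0.025 and LIN54 from -0.12 to 0.13. The cause was not tested. CDKN2D was not tested at a mean CPM of at least 5. Having 3 libraries a group limits the changes that can be called.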
